A study of Mus musculus with 30 samples.

Results

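Lgals1 encodes galectin 1, and its transcript was followed across 3 motoneuron pools that were laser-captured from the spinal cord of adult mice. The array annotation assigned 1 probe set, 99669_at, to Lgals1, so 1 of the 8251 genes named on the array is described. The gene was picked from these same samples, because its level was lower in IML than in LMN while fibroblast markers were higher there. The levels of Lgals1 are therefore given as a description, with no test.

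The pools were intermediolateral column motoneurons (IML), lateral motoneurons (LMN) and medial motoneurons (MMN). IML motoneurons are autonomic preganglionic cells, while LMN and MMN motoneurons are somatic cells that drive skeletal muscle. All 3 pools came from each of 5 sham-operated controls, with 400 captures per pool and animal. The labels name no strain, sex, exact age or spinal segment. RNA of each animal and pool was split, amplified through a double protocol and put on 2 arrays (technical sets 1 and 2), which gave 10 arrays and 5 samples per pool and 30 arrays and 15 samples in all. A laser capture takes the tissue around a cell body as well as the cell, and the pools were dissected by position.

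Galectin 1 is a small lectin that binds beta-galactosides, above all the lactosamine ends of branched N-glycans and the ganglioside GM1. It is made in the cytoplasm, leaves the cell by a route that bypasses the secretory pathway and crosslinks glycoproteins such as integrins, laminins and fibronectin outside the cell. Fibroblasts, endothelium and astrocytes make it, and so do sensory neurons and motoneurons of the spinal cord. In injured nerves an oxidised form that does not bind sugars is known to promote axon regrowth.

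Values are log2 intensities, and a difference of 1 is a 2-fold ratio. Array medians ran from 131.69 to 145.91 on the linear scale, and the number of animals limits the precision. The paired arrays of a sample correlated at 0.983 to 0.998 over 12422 probe sets. Of 14 listed motoneuron markers, 9 had a named probe set, among them Slc18a3, the vesicular acetylcholine transporter, and Prph, the intermediate filament peripherin. Slc18a3 had a mean of 7.18 ± 0.28 in IML, against 8.73 ± 1.17 in LMN and 8.30 ± 1.01 in MMN (SD, n = 5 each). The median over all probe sets was 7.10, close to the level of Slc18a3 in IML. Of 8 listed markers of visceral motoneurons 6 were measured, and their mean was 8.70 in IML, against 7.47 in LMN and 7.51 in MMN. In limma, 2 of the 6, Penk and Adcyap1, were called higher in IML than in LMN, beside 5.46% of all probe sets. Tac1, Sst, Calb1 and Nos1 did not pass, and Nos1 had means of 5.72 in IML and 5.69 in LMN. Within LMN, animal 2 had the lowest level of both Slc18a3 and Prph, at 7.12 and 8.19. Lgals1 differences from LMN and its main correlations are given with and without that sample. Calls of named genes that ended without it are listed in the last section.

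Lgals1 was highest in LMN, intermediate in MMN and lowest in IML. In IML the 5 animals had log2 levels of 9.37, 9.66, 9.57, 10.64 and 9.81, in the order of their numbers. In LMN the same animals had 11.97, 9.81, 10.51, 11.29 and 11.58. In MMN they had 11.27, 9.91, 9.82, 10.19 and 10.92. Animals 1, 4 and 5 were high in LMN, animals 1 and 5 in MMN, and animal 4 alone stood high in IML. The ranges of the pools overlapped, since animal 2 in LMN lay below animal 4 in IML. The means were 9.81 ± 0.49 in IML, 11.03 ± 0.87 in LMN and 10.42 ± 0.64 in MMN (SD, n = 5 each). As geometric means of the linear intensity these are 899 in IML, 2090 in LMN and 1373 in MMN.

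**Figure D1:**
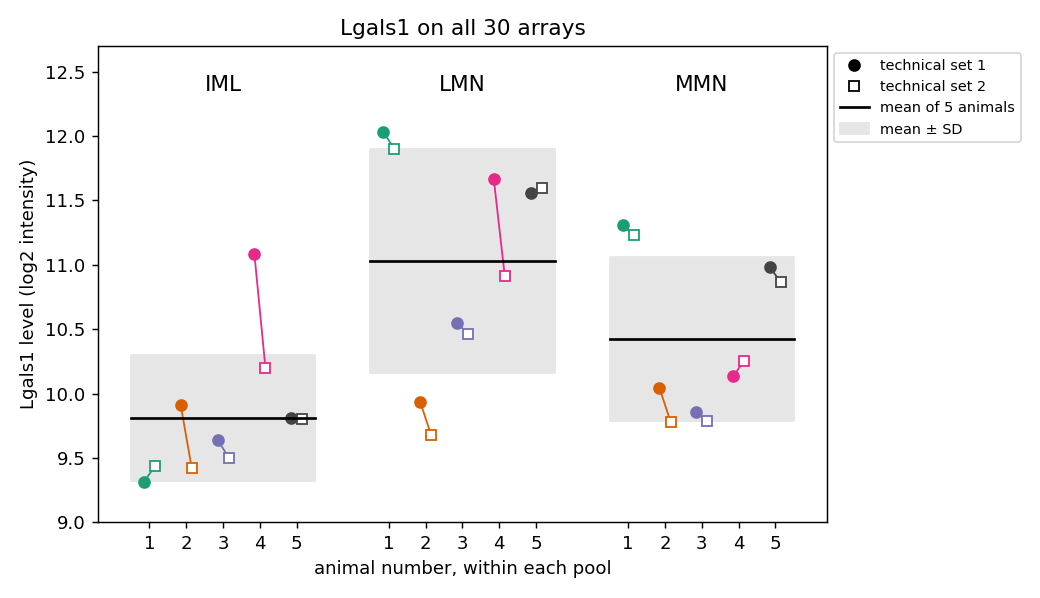
Log2 intensity of Lgals1 on each of the 30 arrays (vertical axis), by pool and animal (horizontal axis), with technical set 1 as filled circles and set 2 as open squares joined per sample; the line is the mean of 5 animals and the band is the mean ± SD. IML lies around 9.81 with animal 4 above the rest, LMN around 11.03 with animal 2 below the rest, and the widest gap between paired arrays is that of animal 4 in IML.

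Both technical sets gave the same order of pools. The highest single array was LMN of animal 1 in set 1, with an intensity of 4186, and its partner in set 2 had 3825. The lowest was IML of animal 1 in set 1, with 636 against 693 in set 2. The widest gap between partners was in IML of animal 4, where set 1 read 2172 and set 2 read 1175, a 1.85-fold ratio. The next was LMN of animal 4, with 3254 and 1924. In the other 13 samples the partners were within 1.40-fold of each other. The technical SD of Lgals1 was 0.25, against a median of 0.17 over the 665 probe sets whose mean lay within 0.5 of its own. Its SD between animals within a pool was 0.68, against a median of 0.27 over the same probe sets, and 98.3% of them had a smaller one. Lgals1 thus varied more from animal to animal than between the paired arrays of a sample.

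Within animals, IML was below LMN in 5 of 5 animals. The log2 differences of IML less LMN were -2.59, -0.14, -0.93, -0.65 and -1.77 for animals 1 to 5, and their SD was 0.97. The mean difference was -1.22 ± 0.31 (SE from the model over all probe sets), which puts LMN 2.32-fold above IML. In animal 1 the ratio of LMN over IML was 6.03-fold and in animal 2 it was 1.10-fold, so the size of the difference depended on the animal. A decrease in all 5 animals was found for 10.6% of all probe sets in this contrast, and nothing is read from it here because the gene was chosen by it. Without the LMN sample of animal 2 the difference was -1.44, and without animal 1 it was -0.87.

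MMN lay between the other pools, and its distance from IML was smaller than the spread between animals. The differences of IML less MMN were -1.89, -0.25, -0.25, 0.45 and -1.11 for animals 1 to 5. Their mean of -0.61 ± 0.31 (SE) compares with an SD of 0.91 between animals. Animal 4 had the opposite sign in set 1 (0.95), while in set 2 all 5 animals were below 0 and animal 4 had -0.06. Without animal 1 the mean difference was -0.29. IML was lower in 4 of 5 animals, and 19.9% of all probe sets were lower in at least 4.

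LMN exceeded MMN in 4 of 5 animals, as did 30% of all probe sets in at least 4. The differences of LMN less MMN were 0.70, -0.11, 0.69, 1.09 and 0.66, with a mean of 0.61 ± 0.31 (SE) and an SD of 0.44 between animals. The exception was animal 2, whose LMN sample had the lowest Slc18a3 and Prph of that pool, and without that sample the mean was 0.83. The full order of LMN over MMN over IML was found in 3 of 5 animals, those numbered 1, 3 and 5. Of the sum of squares over the 15 samples, 39.7% lay between pools and 32.3% between animals, against medians of 10.2% and 57.6% over all probe sets. The choice of the gene by its difference between pools favours a high first share, and nothing is read from it.

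The levels of Lgals1 followed the mean of the motoneuron markers from sample to sample, though not each marker. Over the 15 samples, Lgals1 had a Pearson correlation of 0.95 with the mean of the 9 measured motoneuron markers. These samples share animals, and the points of a pool share the pool. With the mean of each pool subtracted the correlation was 0.93, with the mean of each animal subtracted it was 0.95, and without the LMN sample of animal 2 it was 0.95 over 14 samples. With the filament genes left out, a choice made after seeing the data, the other 5 markers gave 0.88. Taken singly over the 15 samples, Slc18a3, Prph and Nefh had 0.84 each, Nefm 0.50, Isl1 0.37 and Nefl 0.19. With animal means subtracted Nefm had 0.96, Nefl 0.73 and Isl1 -0.01. Isl1 differed by 0.13 ± 0.10 (SE) between IML and LMN (limma adjusted p = 0.472). Its mean level was 5.64, under the median of 7.10 over probe sets. A signal this low may be mostly background, so nothing is read from the weak correlations of Isl1. Correlations are given with no p, since pools, animals and amplification are shared between points.

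Of the 9 markers, 6 fell in IML relative to LMN, beside 3.53% of all probe sets in that direction. They were Slc18a3, Lhx3, Nefh, Nefm, Nefl and Ret. Lhx3 and Ret averaged 6.91 and 6.65, below the median over probe sets of 7.10. Of 17 alternative settings, the call held in all for Nefh, in 11 for Nefm, in 10 for Nefl and in 8 for Slc18a3. The marker mean took the same order of pools as Lgals1 in 4 of 5 animals, among them animal 2, where MMN was highest for both. In animals 1 to 5 the mean of the 9 markers differed by -1.30, -0.08, -0.60, -0.30 and -0.88 between IML and LMN. Animal 1 had the largest and animal 2 the smallest difference for both measures. The summed linear intensity of the 9 markers ran from 6005 to 9327 in IML, from 11083 to 20273 in LMN and from 9437 to 14935 in MMN. In material of this kind, fewer cells of a type and less RNA per cell cannot be told apart. The part of motoneuron content in the difference of Lgals1 was not tested.

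**Figure D2:**
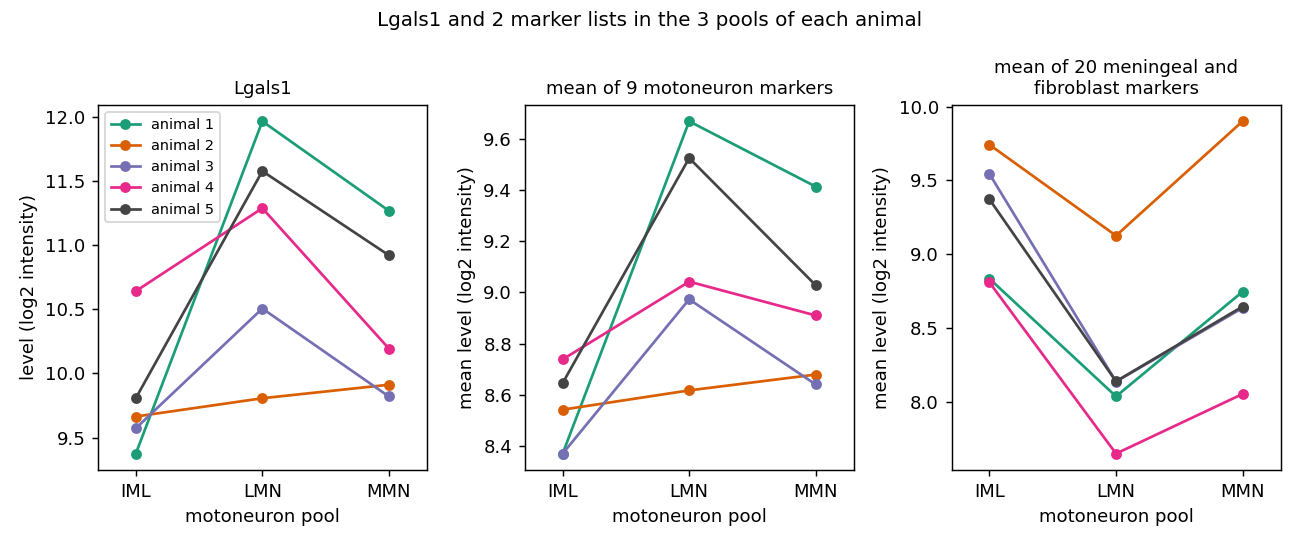
Lgals1, the mean of 9 motoneuron markers and the mean of 20 meningeal and fibroblast markers (log2 intensity, vertical axes) in the 3 pools (horizontal axes), with a line per animal. The Lgals1 and motoneuron panels have similar shapes, with animal 2 nearly flat in both, while the fibroblast panel has its lowest point in LMN in all 5 animals.

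Fibroblast markers ran opposite to Lgals1 between IML and LMN, a pattern for which the gene was picked, so the values below are a description and say nothing of which cells the transcript came from. All 20 listed meningeal and fibroblast markers were measured, and 17 had an adjusted p under 0.05 with a higher level in IML than in LMN. The background of such calls was 5.46% of all probe sets, and nothing is read from the count, since the choice of Lgals1 used it. Their mean was 9.26 in IML, 8.22 in LMN and 8.80 in MMN. Their summed intensity ran from 24521 to 35521 in IML, from 9685 to 24313 in LMN and from 12193 to 39237 in MMN. No marker of the list was at 0.

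The fibroblast mean was higher in IML than in LMN in animals 1 to 5 by 0.80, 0.62, 1.41, 1.16 and 1.23. The sample with the highest fibroblast mean, MMN of animal 2 at 9.90, had Lgals1 at 9.91. The lowest, LMN of animal 4 at 7.65, had Lgals1 at 11.29. Over the 15 samples the correlation of Lgals1 with the fibroblast mean was -0.69, and -0.47 with the pool means subtracted. Without the LMN sample of animal 2 the first value was -0.68 over 14 samples. Over all 15 samples the mean of 15 microglia and macrophage markers had -0.64. The means of 10 astrocyte markers had -0.68, of 9 endothelial markers -0.66 and of 10 oligodendrocyte markers -0.73. None of these lists had a positive correlation with Lgals1, and neither had the mural cell (-0.39), Schwann cell (-0.07) and red blood cell (-0.36) lists, of 6, 2 and 2 measured markers. The 6 visceral motoneuron markers had -0.70, and the 2 measured markers of skeletal alpha motoneurons, Bcl6 and Mmp9, had 0.78. These values hold the difference between pools by which the gene was picked. With the pool means subtracted, the microglia and macrophage list had -0.32 and the visceral motoneuron list -0.56.

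**Figure D3:**
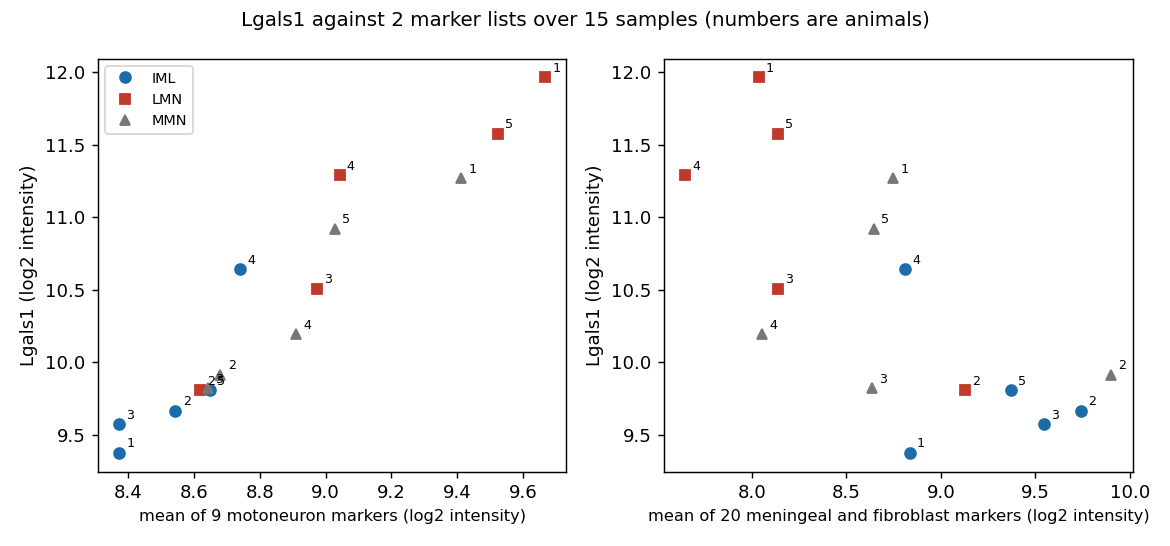
Lgals1 (log2 intensity, vertical axes) against the mean of 9 motoneuron markers (left) and of 20 meningeal and fibroblast markers (right), with 1 point per sample, the pool as the symbol and the animal as the number. On the left the 15 points rise together with a correlation of 0.95, and 4 of 5 IML points lie at the low end of Lgals1, with animal 4 at 10.64 in mid-range; on the right the correlation is -0.69.

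The genes whose pattern was most like that of Lgals1 were ranked by Pearson correlation over the 15 samples after each animal's mean over its 3 pools was subtracted. The ranking covered 4899 other genes with a mean at or above the median, and the 5th and 95th percentiles of the correlation were -0.72 and 0.73. Pip5k1b, a kinase that makes phosphatidylinositol bisphosphate, came first with 0.96 (0.92 in set 1 and 0.93 in set 2). Nefm, the medium neurofilament subunit, had 0.96 (0.77 and 0.92). Mcam, a cell adhesion molecule that is itself known as a galectin 1 binding glycoprotein of endothelium, had 0.94 (0.88 and 0.96).

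The other 7 were Skp1 (0.94), a subunit of ubiquitin ligases, Ssbp2 (0.93), a DNA-binding protein, the membrane metalloprotease Adam19 (0.93), the protease subunit Capn1 (0.93), the calcium-binding copine Cpne6 (0.93), the transcription factor subunit Rfxank (0.92) and Fxyd7 (0.92), a regulator of the sodium pump in neurons. All 10 were on average lower in IML than in both other pools and higher in LMN than in MMN, a pattern that the ranking itself favours. The ranking left out differences between animals, and on those the genes parted. With the pool means subtracted instead, Mcam had 0.94, Adam19 0.93, Cpne6 0.92 and Fxyd7 0.90, while Nefm had 0.19, Skp1 0.19 and Rfxank 0.35.

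Mcam had a correlation of 0.94 with Lgals1 on both scales. Its log2 levels were 9.30, 9.36, 9.12, 10.07 and 9.64 in IML for animals 1 to 5, 11.13, 9.58, 9.95, 10.40 and 10.99 in LMN, and 10.45, 9.73, 9.72, 10.27 and 10.53 in MMN. As with Lgals1, animal 4 was the highest in IML, animal 1 the highest and animal 2 the lowest in LMN. Adam19 had 8.39 in animal 4 in IML, against 7.23 to 7.27 in the other 4 animals. Nefm did not share this: animal 4 had 10.49 in IML, below the 11.75 of animal 2.

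The genes most opposed to Lgals1 were led by peptide precursors. Sst, the somatostatin precursor, had a correlation of -0.92, Penk, the enkephalin precursor, -0.92, Btbd1 -0.92, Ints7, a subunit of the integrator complex, -0.92 and Zfp532 -0.91. Penk had 12.65, 12.02, 12.04, 11.82 and 12.37 in IML for animals 1 to 5, against 9.88, 11.12, 11.02, 10.58 and 9.51 in LMN. The Penk probe set is of a kind that may bind related transcripts. Animals 1 and 5 had the highest Penk in IML and the lowest in LMN, and they had the widest gaps of Lgals1 between these pools. The ranking by which Penk was chosen favours such a match, and nothing is read from it. With pool means subtracted the correlation was -0.87 for Penk and -0.31 for Sst. Both peptides are known from preganglionic and other spinal neurons.

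**Figure D4:**
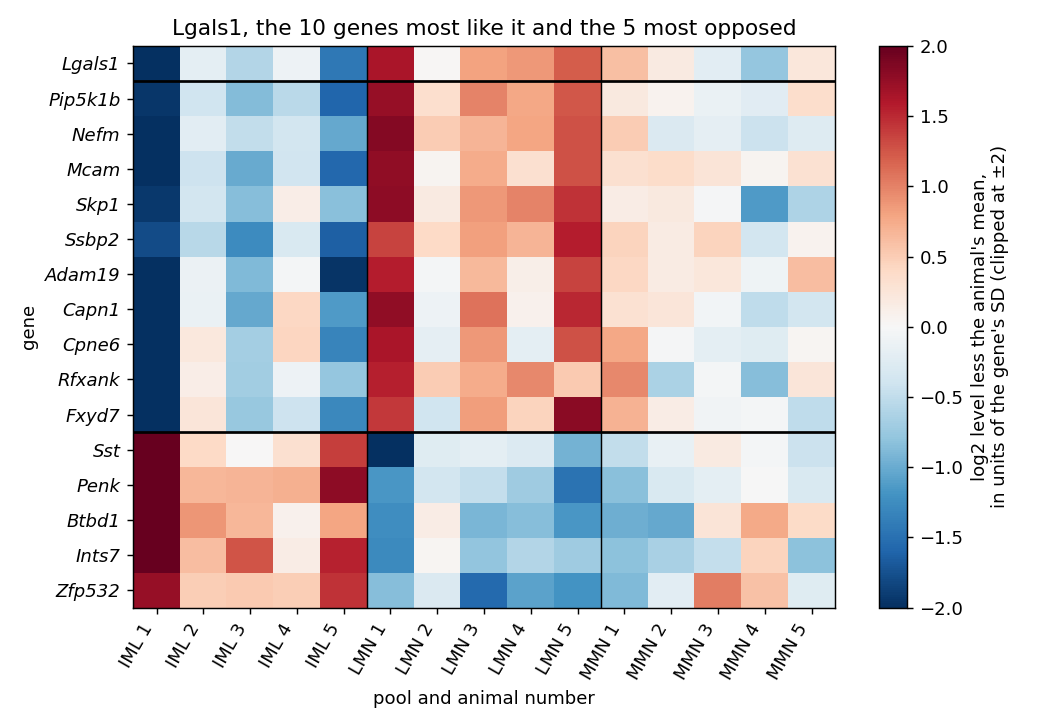
Level of Lgals1, of the 10 genes most like it and of the 5 most opposed (rows) in the 15 samples (columns), as log2 less the mean of the animal, divided by the SD of the gene, with colours clipped at ±2. Lgals1 and the 10 genes are lowest in IML of animal 1, and Lgals1 and all of the 10 but Rfxank are highest in LMN of animals 1 and 5, while the 5 opposed genes are highest in IML of animal 1.

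None of the other measured galectins passed the test in any contrast, and Lgals1 itself was not tested. Besides Lgals1, 7 of the 10 other listed galectin genes had a named probe set, and limma called 0 of the 7 in each contrast. At an unadjusted p under 0.05 there were 2 between IML and LMN, none between IML and MMN and 1 between LMN and MMN. The background of calls was 8.98% of all probe sets between IML and LMN, 0.346% between IML and MMN and 0.0564% between LMN and MMN, of which 0.0242% were higher and 0.0322% lower in LMN. Beside these shares, 0 of 7 does not set the galectins apart from other genes. Their median difference between IML and LMN was 0.06, against -0.02 over all probe sets.

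Lgals3, the galectin of macrophages that also binds RNA-processing complexes, averaged 4.68 ± 0.24 in IML, against 4.40 ± 0.13 in LMN and 4.55 ± 0.33 in MMN (SD, n = 5 each). Its difference of 0.29 ± 0.13 between IML and LMN (SE, limma adjusted p = 0.202) was positive in 5 of 5 animals and did not pass. With all 30 arrays in the fit the limma adjusted p was 0.0415, but the paired arrays of a sample share RNA. That fit raised the calls over all probe sets from 1116 to 1840 in this contrast, so nothing is read from it. Lgals7, a galectin of stratified epithelium, differed by -0.16 ± 0.06 between IML and LMN (adjusted p = 0.117) and by 0.14 ± 0.06 between LMN and MMN (adjusted p = 0.389), the signs of Lgals1 at a much smaller size.

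Lgals9, a tandem-repeat galectin of immune cells, averaged 7.86 in IML, against 7.72 in LMN and 7.76 in MMN, and its second probe set had the same signs. Lgalsl, a galectin-related gene without known sugar binding, had means of 8.21 ± 0.21 in IML and 7.90 ± 0.79 in LMN, with values from 6.65 to 8.53 in LMN. For Lgals2 and Lgals4, galectins of the gut, and Lgals8, a tandem-repeat galectin, the differences of all 3 contrasts lay between -0.02 and 0.06. The means of Lgals2, Lgals3, Lgals4, Lgals7 and Lgals8 lay below the median over probe sets of 7.10, and without detection calls it is unknown whether these probe sets detect their transcripts.

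**Figure D5:**
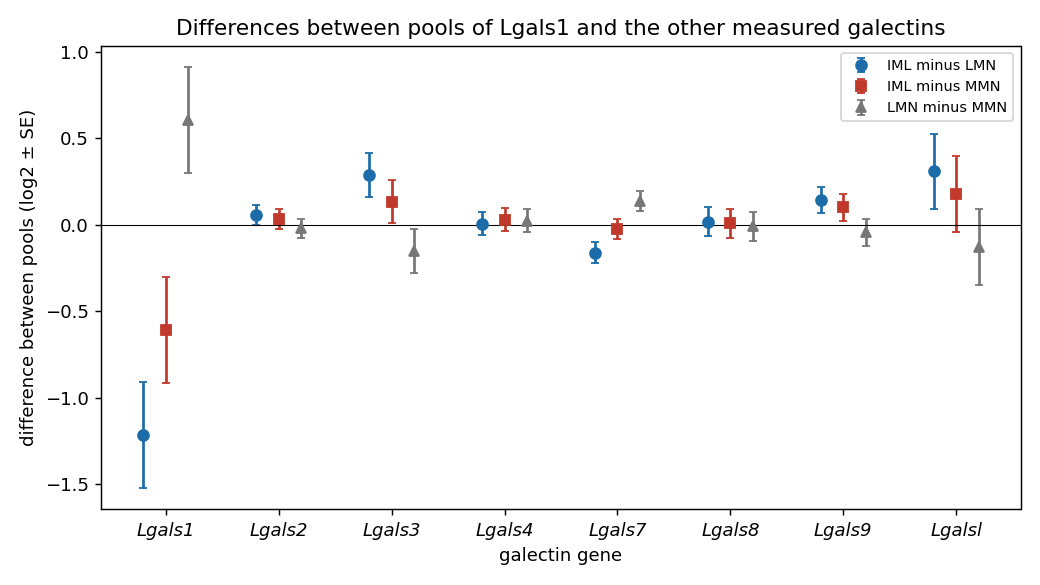
Differences between pools (log2 ± SE, vertical axis) of Lgals1 and the 7 other measured galectin genes (horizontal axis), as IML minus LMN, IML minus MMN and LMN minus MMN. The differences of Lgals1 of -1.22, -0.61 and 0.61 lie outside the span of the others, which runs from -0.16 to 0.31. Lgals1 was picked for its difference between IML and LMN, so nothing is read from this.

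Among genes for glycoproteins that galectin 1 is known to bind, the fibronectin gene and 4 of 7 measured laminin genes rose in IML relative to LMN. Of 26 listed, 22 were measured, 5 were higher in IML than in LMN (22.7%, against a background of 5.46% for this direction) and none was lower. Fn1, which encodes fibronectin, rose by 0.90 ± 0.19 (SE, limma adjusted p = 0.0149), with means of 9.06 in IML and 8.16 in LMN and a higher level in 5 of 5 animals. The laminin genes Lamb1 (1.25 ± 0.31, adjusted p = 0.031), Lamb2 (0.81 ± 0.19, adjusted p = 0.023), Lama2 (0.76 ± 0.20, adjusted p = 0.037) and Lama4 (0.64 ± 0.17, adjusted p = 0.0385) rose as well. The second probe set of Lamb1 gave 0.58 and did not pass. The other laminin genes, Lamc1 (0.24 ± 0.08, adjusted p = 0.0788), Lama1 (0.02 ± 0.07, adjusted p = 0.926) and Lama5 (0.01 ± 0.06, adjusted p = 0.928), did not pass either. Beside them, 17 of 20 fibroblast and 3 of 9 endothelial markers were higher in IML. The summed endothelial intensity ran from 1971 to 3002 in IML, against 1608 to 2098 in LMN. The part of those cells in the difference was not tested. The calls of Fn1, Lamb1, Lamb2 and Lama2 ended without animal 4 and without animal 5.

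The remaining 17 partners did not pass between IML and LMN. Itgb1, the integrin beta 1 subunit through which galectin 1 acts on adhesion, averaged 12.37 in IML, against 12.38 in LMN and 12.29 in MMN. Nrp1, a semaphorin receptor to which galectin 1 binds in axons, had 7.46 in IML, 7.48 in LMN and 7.41 in MMN. Lgals3bp, a secreted glycoprotein ligand of galectins, differed by 0.12 ± 0.08 between IML and LMN. No partner was called between IML and MMN or between LMN and MMN, where the medians over the 22 were 0.05 and -0.05. Over all probe sets they were 0.01 and 0.02.

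Some enzymes that build gangliosides, the lipid family of the ligand GM1, fell in IML relative to LMN. GM1 itself was not measured. Of 14 listed ganglioside enzymes 12 were measured, 3 fell, 1 rose and 8 did not pass in this contrast, where 3.53% of all probe sets fell and 5.46% rose. The list's median difference was -0.14, against -0.02 over all probe sets. B4galnt1, the synthase of GM2 on the path to GM1, fell by 0.56 ± 0.12 (limma adjusted p = 0.0177), with means of 7.67 in IML and 8.23 in LMN. St3gal5, the synthase of GM3, fell by 0.24 ± 0.06 (adjusted p = 0.0289), and St8sia1, the synthase of GD3, by 0.25 ± 0.06 (adjusted p = 0.031). Hexa, a lysosomal subunit that degrades GM2, rose by 0.61 ± 0.16 (adjusted p = 0.0324), but its second probe set gave 0.07. Between IML and MMN, St3gal5 differed by -0.31 ± 0.06 and narrowly missed the threshold (adjusted p = 0.0645). Over the 15 samples with animal means subtracted, the correlation with Lgals1 was 0.67 for B4galnt1 and 0.27 for St3gal5. The calls of St3gal5, St8sia1 and Hexa ended without animals 3, 4 or 5, and that of B4galnt1 ended without animals 2, 3 or 5. B4galnt1 held in 13 of 17 alternatives, St3gal5 in 6 of 17, St8sia1 in 7 of 16 and Hexa in 9 of 18. St8sia1 averaged 5.87 in IML and 6.11 in LMN, below the median over probe sets of 7.10.

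Among enzymes of N-glycan branching and capping, 18 of 25 listed were measured, and 2 rose in IML relative to LMN (11.1%, against a background of 5.46%), none fell and 16 did not pass. Their median difference was -0.03, against -0.02 over all probe sets. St3gal4, a sialyltransferase that caps galactose, rose by 0.41 ± 0.08 (limma adjusted p = 0.00956) in 5 of 5 animals, a call that held in all 17 alternatives run for it. Man2a1, the Golgi mannosidase that precedes branching, rose by 0.40 ± 0.10 (adjusted p = 0.0251), a call that held in 11 of 17 and ended without animal 1, 3, 4 or 5. Mgat2, which starts the second branch, differed by -0.33 ± 0.15 and B4galt6, a galactosyltransferase that makes lactosylceramide, by -0.31 ± 0.12, and neither passed. No member was called between IML and MMN or between LMN and MMN.

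The neuronal intermediate filament genes had on average the sign of Lgals1 between IML and both other pools. Nefh, Nefm, Nefl and Prph are also among the 9 motoneuron markers above, so their calls are not a separate result. All 5 were measured, and between IML and LMN 3 fell and 2 did not pass, against a background of 3.53% for this direction. Nefh, the heavy neurofilament subunit, differed by -1.02 ± 0.11 (limma adjusted p = 0.000676) between IML and LMN and by -0.65 ± 0.11 (adjusted p = 0.0345) between IML and MMN, both in 5 of 5 animals. The background of falls in the second contrast was 0.113%, and that call held in 8 of 17 alternatives. Between IML and LMN, Nefm fell by 1.03 ± 0.23 (limma adjusted p = 0.0182) and Nefl, the light subunit, by 0.45 ± 0.10 (adjusted p = 0.018). Relative to MMN, Nefm was lower in IML in 3 of 5 animals and did not pass. Prph differed by -0.59 ± 0.39 and did not pass, but its levels followed Lgals1 across animals. Animal 4 had Prph at 11.44 in IML, against 8.80 to 9.65 in the other 4 animals, and with pool means subtracted its correlation with Lgals1 was 0.93.

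Among injury and regeneration genes, with which galectin 1 is often grouped, 21 of 23 listed were measured, and between IML and LMN 4 rose, 1 fell and 16 did not pass. Over all probe sets 5.46% rose and 3.53% fell in this contrast, and the list's median difference was 0.04. Adcyap1, which encodes the neuropeptide PACAP, is also among the 6 measured visceral motoneuron markers. It rose by 2.03 ± 0.22 between IML and LMN (limma adjusted p = 0.000731). It was also the 1 member called between IML and MMN, by 1.59 ± 0.22 (adjusted p = 0.0148), beside 0.233% of all probe sets higher in IML. Leaving out animal 1, 3, 4 or 5 ended the call against MMN, which 11 of 17 alternatives kept. Gap43, the growth cone protein, rose by 1.62 ± 0.27, the transcription factor Klf6 by 0.61 ± 0.10 and Basp1, a growth cone protein, by 0.31 ± 0.07 between IML and LMN. Stmn2, a neuronal stathmin, fell by 0.34 ± 0.09 (adjusted p = 0.0437). With animal means subtracted, the correlation with Lgals1 was -0.80 for Gap43, -0.67 for Klf6 and -0.66 for Adcyap1.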

How the data were processed

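Laser-captured IML, LMN and MMN motoneurons of 5 mice were measured on 30 Affymetrix arrays. The authors deposited linear intensity that, per the labels, had been normalized in R-pack and taken back from logs. No source says which R-pack method was applied. Detection calls were not used here, and whether a low value exceeds background is unknown.

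Of 12488 probe sets, 66 controls were left out and 12422 tested. The annotation gave a single symbol for 10833, more than 1 for 396 and no symbol for 1193, and 10817 symbols were taken through the gene identifier from a GRCm38.p6 table. A gene was represented by its probe set with the highest mean. After a log2 step without an offset, both arrays of each sample were averaged. In R 4.3.3, limma 3.58.1 fitted pool plus animal as fixed effects over the 15 samples, with eBayes. Two-sided p-values were adjusted by Benjamini-Hochberg across the 12422 with a threshold of 0.05, and SDs are over 5 animals. The labels say that each animal gave all 3 pools, so the animal is a block; deviations from the pool means correlated at 0.29 to 0.75 in all 15 pairs of samples that share an animal. The fit was also run on simulated data, with independent noise for each probe set and shifts in IML only. Such data hold no shifts shared by the genes of a cell type, so that run is no check on the named calls. Alternatives changed the block, the technical set, the scaling, a floor, dim probe sets, the variance model and the samples.

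The gene, lists and rules were chosen with earlier results of these data known. Named were all galectins, up to 4 members of each other list with the smallest p in any contrast plus those called against MMN, Slc18a3, Prph, Isl1 and Nefh, and the 10 most and 5 least correlated genes; Itgb1, Nrp1, Lgals3bp, Lama1, Lama4, Lama5, Lamc1 and Stmn2 were added after their values were seen.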

Additional observations from a re-analysis of the deposited data

Results flagged for a closer look

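Of 93 groups of 5 samples, 4 held a sample whose gap to the nearest other sample took more than 0.71 of the range of its group, about as many as chance gives at 1 in 20. Lgals1 was not among them in any pool. Lgals2 in IML had 6.67 in animal 1, against 6.22 to 6.34 in the other 4 animals. B4galt6 in IML had 8.67 in animal 1, against 9.46 to 9.74. Adcyap1 in LMN had 9.11 in animal 4, against 6.81 to 7.21, and Isl1, a transcription factor of motoneurons, had 5.96 in LMN of animal 1, against 5.46 to 5.56.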

How the results depend on the processing

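Changes of the block, the floor, the variance model, the dim probe sets or the pools fitted left the Lgals1 differences the same, as did all 30 arrays. Those settings are therefore no check on the sign. Over all 17 alternatives of each contrast the differences of Lgals1 kept their sign, which for IML less LMN is the sign the gene was picked by. They ran from -1.49 to -0.87 for IML less LMN, from -0.88 to -0.29 for IML less MMN and from 0.48 to 0.83 for LMN less MMN, and these are also the ranges without each animal in turn, except that LMN less MMN then ended at 0.78. Calls over all probe sets moved more. Between IML and LMN 1116 were called as reported. The count was 135 with no replicate block, 601 with technical set 1, 713 with set 2, 1840 with all 30 arrays, 717 with a floor of 32, 705 with the 2 pools alone and 371 to 935 without each animal. Between IML and MMN 43 were called, against 4 with no replicate block, 9 with set 1, 464 with all 30 arrays, 10 with the floor, 6 with the 2 pools alone, 21 without the LMN sample of animal 2 (chosen after seeing the data) and 0 to 42 without each animal. Between LMN and MMN 7 were called, against 0 with no replicate block (435 at an unadjusted p under 0.05 in limma), 3 with set 2, 241 with all 30 arrays, 4 with dim probe sets left out, 67 with the 2 pools alone and 0 to 5 without each animal. The counts of 0 without an animal were those without animal 3 or 4 between IML and MMN (978 and 1489 at an unadjusted p under 0.05) and without animal 2, 3 or 5 between LMN and MMN (1339, 1238 and 1203). The cause was not tested. Of the 20 calls of named genes, 16 ended with no replicate block, 14 without animal 3, 13 without animal 4 or 5, 8 without animal 1 and 4 without animal 2. Without the LMN sample of animal 2, 5 ended: Lama2, St3gal5, St8sia1 and Hexa between IML and LMN, and Nefh between IML and MMN. The calls of Adcyap1, Gap43, Nefh and St3gal4 between IML and LMN held in all 17. Calls were gained in 16 cases, 12 of them with all 30 arrays.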
